A study of Mus musculus with 12 samples.

Results

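With acetate added to etomoxir, 4T1 cells had higher spike-in scaled H3K27ac at nearly every tested interval of the mouse genome, while no single gene or interval was called once each library was divided by its sum and all 12 libraries were fitted. The comparison set the 2 libraries of cells given etomoxir (50 µM) together with acetate (5 mM) against the 2 libraries of cells given etomoxir (50 µM) alone, which are 4 of the 12 libraries of the series. All cells were treated for 48 h, and the other groups used beside them were vehicle, acetate (5 mM) alone, etomoxir with SB204990 (50 µM each), and that combination with acetate (5 mM), again with 2 libraries each. 4T1 is a mouse mammary carcinoma line that metastasizes when grafted, the labels name no genetic change in any group, and the chromatin came from bulk cultures. The names of the libraries carry 1 of 2 suffixes, called set 1 and set 2 here, with 1 library of each treatment in each set. What the suffix denotes is not given in the labels. Since nothing states that the libraries of a treatment came from separate cultures, the p-values measure the spread between libraries, which may be technical.

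H3K27ac is the acetylated form of lysine 27 of histone H3 and marks active promoters and enhancers. Acetyltransferases such as p300 (Ep300) and CBP (Crebbp) place it with acetyl-CoA as the donor, and histone deacetylases remove it. Cells draw acetyl-CoA for the nucleus from citrate through ATP citrate lyase (Acly), from acetate through the synthetase ACSS2, and from the pyruvate dehydrogenase complex. Etomoxir blocks carnitine palmitoyltransferase 1 (Cpt1a in most tissues), which lets long-chain fatty acids enter mitochondria for oxidation, and SB204990 blocks ATP citrate lyase. The question was whether acetate, a direct source of acetyl-CoA, changed the H3K27ac landscape of cells whose fatty acid oxidation was blocked.

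The 12 libraries held between 7.18 and 16.7 M recovered reads over 126464 intervals. Each set had its own library with a spike-in factor of 1, so that the scales of the 2 sets may differ. Tests across the sets carry any such difference in their spread, and within-set values are given beside them. The etomoxir + SB204990 library of set 2 had the fewest reads, and its results are given where it bears on a count. Epithelial markers carried the mark in all 4 libraries of the comparison. Cdh1 (E-cadherin) had deposited values of 2397 and 2254 with etomoxir and 4164 and 4055 with etomoxir + acetate, and Krt8, Krt19, Cldn4 and Epcam were also marked. Krt18 had no interval under its name. Of 18 markers of other cell types, 12 were tested. Adgre1, Olig2, Alb, Myh6 and Myod1 were among those with no interval, while the endothelial marker Pecam1 had values of 572 and 626 with etomoxir and 1081 and 1059 with etomoxir + acetate. The summed level of this list was 1879 and 1848 with etomoxir and 3361 and 3227 with etomoxir + acetate, and its part in the results was not tested. In bulk chromatin, a larger share of cells that carry the mark at an interval and a higher level per cell cannot be told apart.

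The level of H3K27ac was described by the sum of the deposited values of a library. This sum was 8.01 M in set 1 and 7.85 M in set 2 with etomoxir, and 13.7 M and 12.9 M with etomoxir + acetate. Within each set the library with acetate was above the one without it, and the groups did not overlap across sets. The means were 7.93 ± 0.115 M and 13.3 ± 0.521 M (SD, n = 2), a ratio of 1.70 in set 1, 1.64 in set 2 and 1.67 between the means. An exact two-sided permutation test gave p = 0.333, which is the smallest value that 2 against 2 libraries allow.

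The higher sums came with higher spike-in factors, not with more reads. The recovered reads numbered 14.02 and 13.71 M with etomoxir and 13.65 and 13.45 M with etomoxir + acetate, that is 0.973 times as many with acetate in set 1 and 0.981 times in set 2. The factors were 0.571 and 0.573 with etomoxir and 1.00 and 0.960 with etomoxir + acetate, a ratio of 1.75 in set 1, 1.68 in set 2 and 1.71 between the means. The corresponding ratio of deposited sums was 1.47 and 1.30 for acetate against vehicle, and 1.60 and 1.57 for acetate added to etomoxir with SB204990. In each of the 6 within-set pairs, the library with acetate had the higher sum.

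**Figure D1:**
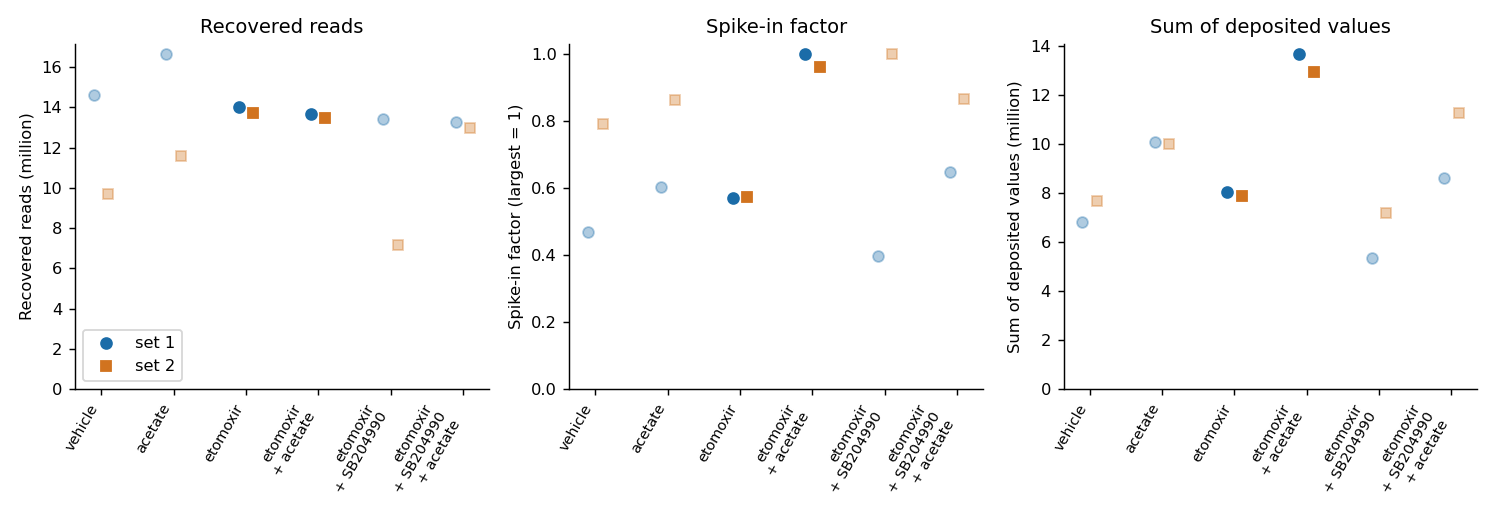
Recovered reads, spike-in factor and sum of deposited values for each of the 12 libraries, with set 1 as circles and set 2 as squares and the 4 compared libraries in full colour. Reads of the etomoxir and etomoxir + acetate libraries lie between 13.45 and 14.02 M, while the factors lie at 0.571 and 0.573 without and at 0.960 and 1.00 with acetate.

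Across intervals, the median deposited value was 9.14 and 8.02 with etomoxir and 17.0 and 15.4 with etomoxir + acetate. The median log2 change over all intervals was 0.82, with 0.83 in set 1 and 0.81 in set 2. Tests covered the 63903 intervals whose values averaged 10 or more across all 12 libraries. Of these, 61685 (96.5%) were higher with acetate in both sets, each compared within itself. Across sets, 94.0% had both acetate libraries above both etomoxir libraries, and 14 intervals had both below. By limma with Benjamini-Hochberg adjustment, 36028 intervals (56.4% of those tested) were called higher at an adjusted p under 0.05 and 0 were called lower, and before adjustment the counts at that threshold were 41898 (65.6%) and 0. At the level of genes, that is, of all intervals the table assigns to a symbol, 15211 of 19458 (78.2%) were called higher and 0 lower, and 15786 (81.1%) and 0 before adjustment. These counts rest on how the factor was applied. When each library's share was multiplied by its factor instead, the median change was 0.85, yet limma called 0 intervals and 0 genes, and 4008 intervals and 776 genes were higher before adjustment. Single libraries also moved the interval count: it was 5144 without the etomoxir + acetate library of set 1, 17273 without that of set 2, 15973 and 6711 without the etomoxir library of set 1 or set 2, and 49081 without the etomoxir + SB204990 library of set 2. Genes called numbered 5603 without the etomoxir + acetate library of set 1 and 7368 without the etomoxir library of set 2, and counts of list members below are also given without each of these 2 libraries, in that order.

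Dividing each column by its sum removes the factor and leaves the share of a library's reads that falls in an interval, given here as reads per 10 M. On this scale the median log2 change of the tested intervals was 0.11 (0.076 in set 1 and 0.129 in set 2). The share was higher in both sets at 43.6% of the tested intervals and lower in both at 19.8%. By limma, 0 intervals were called in either direction after adjustment. Before adjustment, 2961 (4.63%) were higher and 959 (1.5%) lower at p under 0.05. These were 937 and 212 without the etomoxir library of set 2, 1143 and 355 without the set 1 library of etomoxir + acetate, 1667 and 600 with its set 2 library left out, and 5342 and 2231 without the etomoxir + SB204990 library of set 2. Among genes, 0 were called, and 914 (4.7%) were higher and 466 (2.39%) lower before adjustment, or 194 and 92, 258 and 141, 420 and 268, and 1902 and 1124 without the same 4 libraries in turn. The share was higher in both sets at 44.3% of genes and lower in both at 27.1%. The balance of higher and lower depends on the column sum as the reference. Under median-of-ratios scaling the median interval change was 0.013, with 2057 intervals higher and 1118 lower before adjustment. For genes the balance turned: 7762 had a positive and 11696 a negative change, against 11750 and 7708 with the column sum, and 406 were higher and 419 lower before adjustment. edgeR and DESeq2 on the recovered reads also called 0 genes, with 953 and 502 higher and 504 and 255 lower before adjustment. A limma fit of the 4 compared libraries alone, which takes its spread from these groups only, called 1126 genes higher and 735 lower. The change of an interval in set 1 correlated with that in set 2 at r = 0.17 over the 63903 intervals, which share the libraries and their depth.

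**Figure D2:**
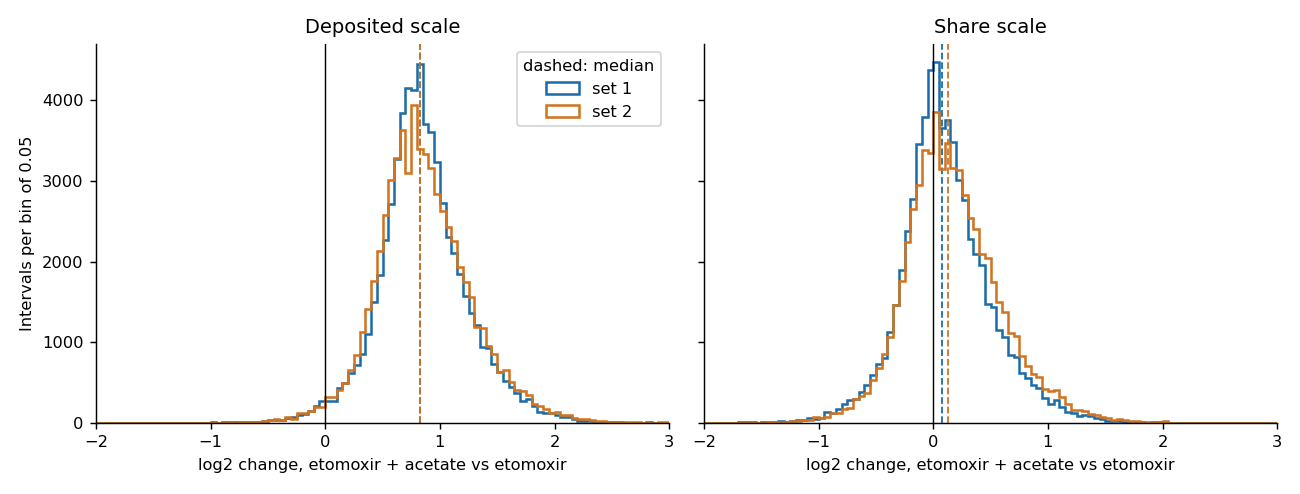
Histograms of the log2 change of each tested interval between the etomoxir + acetate and the etomoxir library of the same set, on the deposited scale (left) and the share scale (right), with the medians dashed. On the deposited scale both sets centre near 0.82 or 0.83, and on the share scale at 0.076 and 0.129.

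Among the annotation classes, the summed share of promoters and of exons was lower with acetate and that of introns, transcription ends and intergenic regions higher, by small amounts. The median tested interval did not follow these sums, with share changes of 0.014 and 0.026 at promoters and 0.105 and 0.166 in exons. Before adjustment, 4.71% of the 5772 promoter intervals were higher and 3.67% lower, and 5.64% and 1.5% of the 4273 exon intervals, beside 4.63% and 1.5% of all tested intervals. Promoter intervals held 12.87% and 13.12% of the reads with etomoxir and 12.45% and 12.51% with etomoxir + acetate, so that both acetate libraries were below both etomoxir libraries. Introns held 52.63% and 52.35% without and 52.86% and 52.66% with acetate. Intergenic intervals held 20.91% and 21.03%, then 21.06% and 21.23%. Transcription end intervals, which lie around the 3' ends of genes, held 6.72% and 6.63%, then 6.81% and 6.78%. Exons held 6.86% and 6.87% without and 6.83% and 6.82% with acetate. The groups did not overlap in any of the 5 classes, and the exact two-sided permutation test gave p = 0.333 in each, the smallest it can give. The promoter difference was -0.424 percentage points in set 1 and -0.615 in set 2. With acetate against vehicle it was -0.118 and -0.0285 points in the same sets. With acetate added to etomoxir and SB204990 it was -0.760 in set 1 and 1.19 in set 2, where the library with the fewest reads was the control.

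On the deposited scale the 5 classes all had positive medians. The median log2 change of tested intervals was 0.76 at promoters, 0.82 at intergenic intervals, 0.84 in introns, 0.87 in exons and 0.92 at transcription ends. The share called higher was 66.98% at promoters, 59.50% at transcription ends, 58.95% in exons, 55.04% in introns and 53.82% at intergenic intervals, beside 56.4% of all tested intervals. Promoters thus had the highest percentage called and the smallest median change of the 5 classes, and their median deposited value was 77.2, compared with 23.5 at transcription ends.

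The share change also ran with the strength of an interval. Intervals with a mean deposited value between 10 and 30 had a median log2 share change of 0.165 in set 1 and 0.254 in set 2. At means of 30 to 100 the medians were 0.104 and 0.167, at 100 to 300 they were 0.013 in both sets, and at 300 or more they were -0.031 and -0.049. The share was lower in both sets at 49.3% of the 6698 strongest intervals and at 12.1% of the 32381 weakest. The ranking was repeated with the 2 vehicle libraries, which take no part in the comparison (an alternative chosen after the data were seen). The strongest 10% by vehicle, 12646 intervals, held 76.3% and 77.8% of the reads with etomoxir and 74.28% and 75.02% with etomoxir + acetate. Vehicle libraries differed between the sets by more than this, at 79.2% and 75.8%. With etomoxir + SB204990 the share was 79.1% and 69.8%, then 76.1% and 77.1% with acetate added, which in set 2 goes the other way. The weakest 50% held 3.95% and 3.48% without and 4.43% and 4.16% with acetate. Neither pair of groups overlapped (exact two-sided permutation p = 0.333 for each).

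Within a range of strength, the medians of promoters and other classes were set side by side, with no test. At means of 100 to 300, the 1549 promoter intervals had median share changes of -0.044 and -0.091, and the 4767 introns had 0.021 and 0.027. At means of 300 or more, promoters had -0.075 and -0.108, introns -0.024 and -0.033, and intergenic intervals -0.027 and -0.036. Among weak intervals of 10 to 30, promoters had 0.193 and 0.281, above the intergenic 0.135 and 0.202. Counting from the nearest start site, intervals within 500 bp had medians of -0.022 and -0.043, and those 2000 to 10000 bp away 0.112 and 0.193. Beyond 100000 bp the medians came down to 0.010 and 0.026.

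Base composition moved with the share change as well. Intervals with at most 40% G and C had medians of -0.008 and 0.017, and the medians went up in each step to 0.187 and 0.267 above 55%. The same order was seen within every range of strength. At means of 300 or more the medians were -0.070 and -0.102 for intervals of at most 43% and 0.032 and 0.023 above 51%. Acetate without etomoxir gave medians of -0.007 and -0.027 at the low end and 0.101 and 0.128 at the high end. GC content can also alter how well a fragment is amplified and sequenced, and its part in these values was not tested.

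**Figure D3:**
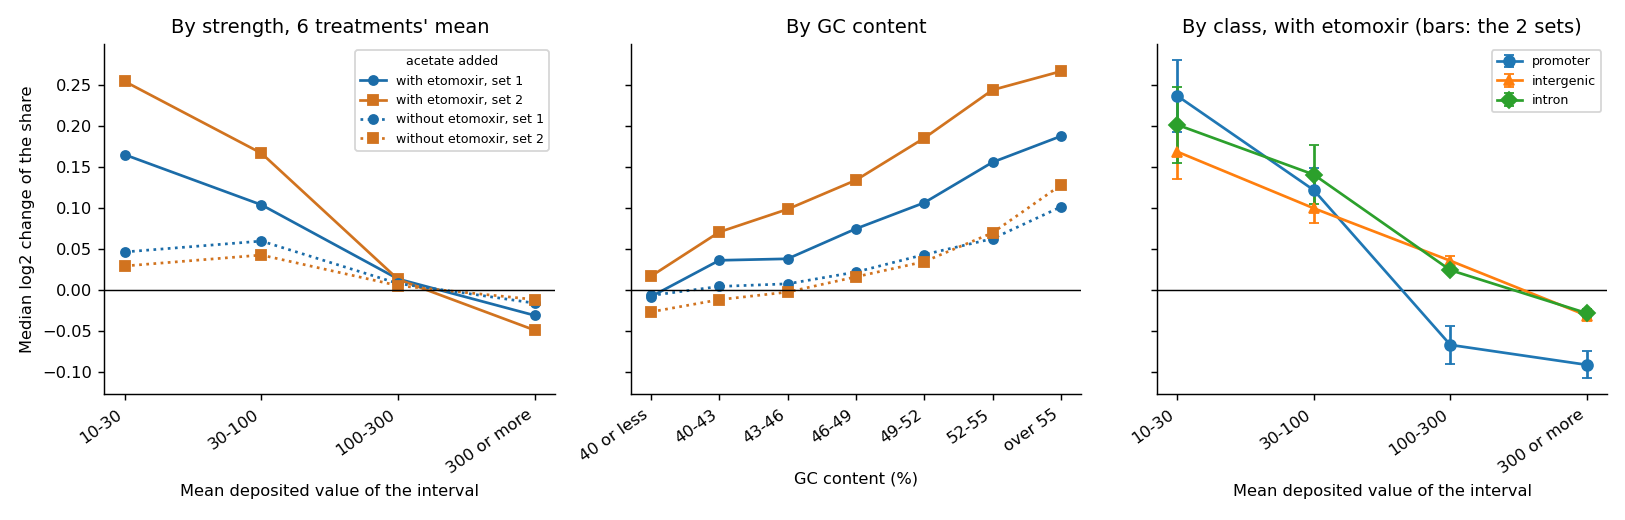
Median log2 change of the share by mean deposited value (left), by GC content (middle) and by class and strength (right), where solid lines are acetate added to etomoxir, dotted lines acetate against vehicle, and the bars at right span the 2 sets. With etomoxir the medians run from 0.165 and 0.254 in the weakest to -0.031 and -0.049 in the strongest intervals.

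The 4 intervals with the lowest p in each direction of the share change were examined singly, and none of these 8 passed the adjusted threshold (limma, adjusted p = 0.776 for each). An intergenic interval near Ranbp3l (chr15:8937755-8943050, mm10, at -27546 bp from the start site) had share values of 178 and 182 reads per 10 M with etomoxir and 267 and 288 with etomoxir + acetate, a log2 change of 0.62 ± 0.11 (SE). Deposited values there were 143 and 143, then 365 and 372. The other higher intervals lay in introns of Nf2, the merlin tumour suppressor (chr11:4831833-4842357, 251 and 235, then 335 and 361), and of Lpp, which encodes an adhesion protein (chr16:24943492-24950621, 130 and 120, then 187 and 194), and at the promoter of Rcor2, a corepressor of the LSD1 complex (chr19:7263735-7271544, 242 and 252, then 352 and 323). The lower ones were an intergenic interval 128172 bp from the start of Antxr2, the anthrax toxin receptor that also binds matrix (chr5:97865603-97870243, 159 and 139, then 92.3 and 93.7), an interval over the start of Fignl1, a DNA repair ATPase, that the table classes as intronic (chr11:11806085-11811199, 419 and 442, then 301 and 324), an intronic interval assigned to Fbxo4, a ubiquitin ligase subunit (chr15:3977636-3980472, 316 and 347, then 227 and 237), and the promoter of Cyp51, lanosterol demethylase of cholesterol synthesis (chr5:4102099-4106524, 301 and 368, then 245 and 233). On the deposited scale the log2 changes of these 4 lay between 0.06 and 0.28, none called, beside 0.83 for the median interval.

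Of these intervals, the promoters of Rcor2, Cyp51 and Fignl1 are printed because they show starts with a higher (Rcor2) and a lower share (Cyp51, Fignl1). They are the RefSeq windows from 250 bases before to 50 after the start (GRCm38.p6, the same assembly as mm10), read along the gene's strand, with each CpG dinucleotide (the letters CG, which read the same on both strands) in capitals. The Rcor2 window is chr19:7267144-7267443 (+ strand), the Cyp51 window chr5:4104648-4104947 (- strand) and the Fignl1 window chr11:11808913-11809212 (- strand).
Rcor2: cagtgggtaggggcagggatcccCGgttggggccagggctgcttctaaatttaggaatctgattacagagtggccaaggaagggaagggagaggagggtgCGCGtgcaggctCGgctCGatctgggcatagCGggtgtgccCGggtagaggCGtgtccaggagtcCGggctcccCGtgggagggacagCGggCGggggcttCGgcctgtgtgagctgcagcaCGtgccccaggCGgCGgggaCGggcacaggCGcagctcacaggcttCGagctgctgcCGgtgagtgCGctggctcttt
Cyp51: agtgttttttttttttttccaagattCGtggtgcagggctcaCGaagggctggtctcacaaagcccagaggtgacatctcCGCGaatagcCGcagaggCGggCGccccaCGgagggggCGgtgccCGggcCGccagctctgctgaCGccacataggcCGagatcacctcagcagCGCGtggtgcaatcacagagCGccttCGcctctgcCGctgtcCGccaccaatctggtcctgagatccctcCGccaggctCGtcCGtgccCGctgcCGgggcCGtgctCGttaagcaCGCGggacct
Fignl1: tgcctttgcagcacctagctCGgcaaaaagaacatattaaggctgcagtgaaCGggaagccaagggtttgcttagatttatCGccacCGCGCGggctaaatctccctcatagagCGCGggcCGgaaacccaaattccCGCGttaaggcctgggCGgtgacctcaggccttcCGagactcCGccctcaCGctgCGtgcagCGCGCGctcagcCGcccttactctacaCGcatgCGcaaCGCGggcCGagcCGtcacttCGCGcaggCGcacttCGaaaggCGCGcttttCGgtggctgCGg
The windows held 21, 28 and 34 CpG, against a median of 7 over 32851 promoter windows, of which 94.6% held at least 1, 24.8% at least 21 and 7.73% at least 34. Over the 9132 tested intervals that held a whole promoter window, those with 25 or more CpG in it had median share changes of -0.053 and -0.091 (3774 intervals, median deposited value 326.6), and those with at most 4 had 0.034 and 0.063 (991 intervals, median deposited value 129).

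Of 14 tested members of the list of acetate uptake and acetyl-CoA supply (17 genes), 11 (78.6%) were called higher, beside 78.2% of all genes, and 0 lower. Fewer were called without the etomoxir + acetate library of set 1 or without the etomoxir library of set 2, as over all genes. The median log2 change was 0.76, beside 0.79 over all genes, so that neither stood apart from all genes. In a fit of genes with a mean of at least 50, a larger part was called higher, 14298 of 15534. For lists of strongly marked genes that part is a closer background than 78.2%. Acly had deposited values of 511 and 526 with etomoxir and 902 and 902 with etomoxir + acetate, a log2 change of 0.80 ± 0.21 (SE, limma adjusted p = 0.0037). Citrate synthase (Cs) rose by 0.75 and the pyruvate dehydrogenase subunit Pdhb by 0.79. Acss2, the cytosolic and nuclear acetyl-CoA synthetase that uses acetate, had values of 46.9 and 43.5, then 75 and 76.8, and its change of 0.74 was not called (limma adjusted p = 0.067). Acss1, the mitochondrial synthetase, was under the filter on low values, with 6.29 and 2.29, then 4.00 and 8.64. The monocarboxylate transporters, which carry acetate and lactate across the plasma membrane, had the extreme share changes of the list: 0.21 ± 0.23 for Slc16a1 and -0.19 ± 0.24 for Slc16a3, neither beyond its error.

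In fatty acid oxidation and PPAR target genes, 22 of 24 were called higher. That stands beside 78.2% of all genes and 14298 of 15534 genes with a mean of at least 50. Fewer were called when either of the 2 libraries named above was left out. The median was 0.82 (0.79 over all genes). Cpt1a, which encodes a target of etomoxir, rose from 1669 and 1650 to 2883 and 2667, a log2 change of 0.74 ± 0.19 (limma adjusted p = 0.0034). Its share was 2083 and 2101 without and 2112 and 2065 with acetate, so that the groups overlapped. Pdk4, a kinase that shuts pyruvate dehydrogenase off and a classical PPAR target, rose from 2204 and 2301 to 3285 and 3289 (0.55 ± 0.19). Its share was 2749 and 2930, then 2406 and 2547, a log2 change of -0.20 ± 0.08 with an unadjusted limma p of 0.028 and no call. Acot2, a mitochondrial acyl-CoA thioesterase, rose by 0.86, from 362 and 349 to 693 and 598. The lipid droplet coat gene Plin2 and the receptor gene Ppard were also called higher, with changes of 0.69 and 0.65.

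Fatty acid and cholesterol synthesis genes were called higher in 21 of 22 cases (78.2% of all genes). Over genes with a mean of at least 50 the count was 14298 of 15534. Fewer members were called without either of those 2 libraries, or without the etomoxir library of set 1. Their median of 0.73 was below the 0.79 of all genes. Srebf1, which encodes a master regulator of lipid synthesis, rose from 1873 and 1704 to 3473 and 3236, and its share was 2337 and 2170, then 2544 and 2506, with no overlap and no call. Scd2, a desaturase, rose by 0.73. Acacb, the acetyl-CoA carboxylase linked to mitochondria, had the highest share change of the list, 0.41 ± 0.19, and Hmgcs1, the cholesterol pathway synthase, the lowest. Its share was 310 and 337 with etomoxir and 265 and 251 with etomoxir + acetate, a log2 change of -0.33 ± 0.09 (limma, unadjusted p = 0.0052, adjusted p = 0.69). Of the 22 tested members, Hmgcs1 is the one without a call on the deposited scale, where its values were 249 and 265, then 362 and 324.

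Among writers and erasers of histone acetylation, 11 of 14 acetyltransferase and reader genes (78.6%) and 17 of 18 deacetylase genes were called higher. That stands beside 78.2% of all genes and 14298 of 15534 genes with a mean of at least 50. In both lists fewer were called when either of those 2 libraries was left out. Ep300 was among those not called: its deposited values were 690 and 722, then 929 and 921 (0.39 ± 0.20, limma adjusted p = 0.070), and its share was 861 and 920, then 680 and 713, a log2 change of -0.35 ± 0.18 without a call. Crebbp rose by 0.83 ± 0.22, Kat6a by 0.85 and Kat5 by 0.76. Among deacetylases, Hdac5 rose by 0.98 ± 0.21 and Hdac2 by 0.50 ± 0.21, and Sirt7 and Hdac4 lay between them with 0.76 and 0.74.

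In the list of EMT (epithelial-to-mesenchymal transition) and extracellular matrix, which bears on metastasis, 38 genes were listed. Of 32 tested, 26 (81.2%) were called higher, near the 78.2% of all genes, and 0 lower. Fewer were called when either of those 2 libraries was left out. The median was 0.76 (0.79 over all genes), and their median share change was 0.02 beside 0.05 over all genes. Col1a1, a fibrillar collagen chain, had deposited values of 546 and 476 with etomoxir and 1125 and 977 with etomoxir + acetate (1.04 ± 0.21, limma adjusted p = 0.0029). Its share was 681 and 607, then 824 and 757, with no overlap and a log2 change of 0.30 ± 0.08 that was not called (limma, unadjusted p = 0.0035, adjusted p = 0.69). Postn (periostin) rose from 1196 and 1119 to 1960 and 1942, with overlapping shares of 1492 and 1425, then 1436 and 1504. Sparc, a matrix glycoprotein, went from 1038 and 1037 to 1930 and 1863, and Itga5, the fibronectin receptor chain, from 566 and 580 to 1055 and 1054. Col4a1, a basement membrane collagen, Tgfbr2, a TGF-beta receptor, and Itgb1, an integrin chain, rose by 0.76, 0.71 and 0.71. Snai1 and Zeb1, transcription factors that drive EMT, had the highest (0.70 ± 0.45) and the lowest share change of the list (-0.48 ± 0.42), both with deposited values of at most 49 in the 4 compared libraries.

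Epithelial identity genes were called higher in 17 of 17 cases (78.2% of all genes). Over genes with a mean of at least 50 the count was 14298 of 15534. Fewer members were called when either of those 2 libraries was left out. The list's median was 0.82 and its median share change 0.08, beside 0.79 and 0.05 over all genes. Krt19 stood highest on the share scale, with 828 and 724, then 917 and 912 (0.24 ± 0.07, limma unadjusted p = 0.0065, not called), and Esrp1, a splicing factor of epithelial cells, lowest (-0.14 ± 0.11).

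In the list of AP-1, other immediate early genes and Myc, 12 of 13 tested genes were called higher on the deposited scale. That stands beside 78.2% of all genes and 14298 of 15534 genes with a mean of at least 50. Fewer were called when either of those 2 libraries was left out. The median was 0.69 (0.79 over all genes). Myc had deposited values of 3891 and 4171, then 5702 and 5764 (0.51 ± 0.18, limma adjusted p = 0.016). The neighbouring non-coding gene Pvt1, which holds known Myc enhancers, rose by 0.74 ± 0.20 from 20253 and 19769 to 33904 and 32971, with overlapping shares of 25269 and 25176, then 24834 and 25530. Junb, an AP-1 subunit, had 3716 and 4021, then 5673 and 5626, and Klf6, with a change of 0.41 ± 0.19, was the one not called. On the share scale, 7 of the 13 had both acetate libraries below both etomoxir libraries (21.1% of all genes did). Another 3 had both above (35.1% of all genes). The median deposited level of the list was 1695.5, beside 213 over all genes. Strong intervals lost share more often, and the part of strength in these counts was not tested.

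For the lists that follow, 78.2% of all genes were called higher on the deposited scale. On the share scale, 21.1% of all genes lay below and 35.1% above without overlap. With a mean of at least 50, 14298 of 15534 genes were called higher. Median deposited levels were 797 for glycolysis, 576 for constitutively expressed genes, 554 for stress and antioxidant genes and 71.2 for other cell types. Over all genes the level was 213, and the part of strength in the counts was not tested. In each of these lists fewer members were called higher when any 1 of the 4 compared libraries was left out, as over all genes. Glycolysis genes (11 of 13 called higher, median 0.67) had 7 of 13 below without overlap on the share scale and 2 above, with a median share change of -0.07. The enzyme genes Eno1, Pkm and Aldoa rose by 0.66, 0.63 and 0.68 on the deposited scale. The phosphofructokinase gene Pfkm had the lowest share change (-0.23 ± 0.11). Constitutively expressed genes (16 of 18 called higher, median 0.72) had 8 of 18 below and 2 above, with a median of -0.02. The ribosomal protein genes Rplp0 and Rpl3 and the actin gene Actb rose by 0.72, 0.73 and 0.73 on the deposited scale. Integrated stress and antioxidant genes (15 of 16 called higher, median 0.71) had 5 of 16 below and 2 above. Asns, asparagine synthetase and a target of the stress factor ATF4, was lowest, with share values of 206 and 204, then 167 and 135 (-0.45 ± 0.19), and Hmox1 highest (0.22 ± 0.14). In the list of other cell types, 8 of 12 were called higher with a median of 0.84 and a median share change of 0.10. Csf1r, a macrophage receptor gene, had 511 and 460, then 593 and 555, on the share scale, and Ptprc, the leukocyte gene CD45, 71.3 and 75.8, then 54.9 and 63.2. None of the 12 lists had a member called on the share scale. With median-of-ratios scaling in place of the column sum, the all-gene median on the share scale shifted down by 0.10 to -0.05, and the positive medians of the lists became negative except that of the other cell types.

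**Figure D4:**
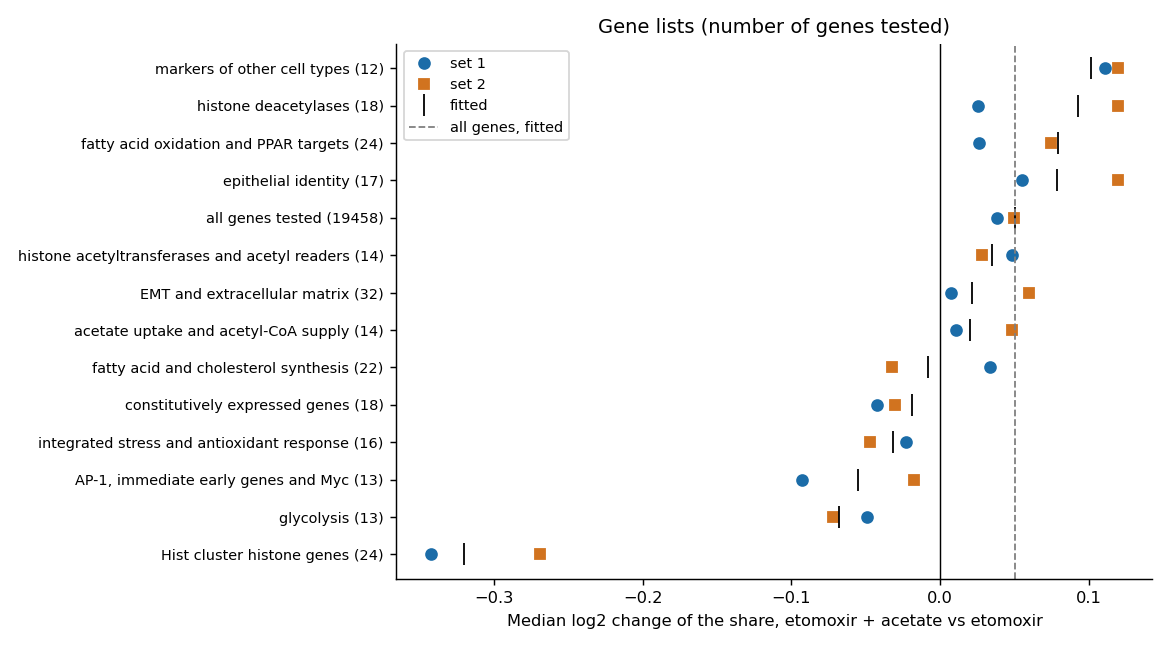
Median log2 change of the share for each gene list, with set 1 as circles, set 2 as squares, the fitted median as a bar, the all-gene median dashed, and the number of genes tested in brackets. The 12 lists lie between -0.07 and 0.10, and the histone genes of the Hist clusters, picked with their values known, at -0.32.

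The largest changes on the deposited scale among called genes with a mean of at least 50 were found at weakly marked genes. That mean takes in the etomoxir + acetate libraries, so that the change itself can lift a gene over the limit. Vmn1r77, a vomeronasal receptor gene, had 25.7 and 17.8 with etomoxir and 69.0 and 63.4 with etomoxir + acetate, a log2 change of 1.58 ± 0.56. Txnrd2, the mitochondrial thioredoxin reductase gene, had 38.3 and 30.9, then 120.0 and 88.3 (1.55 ± 0.40). Tmem235, Cdh23 (a cadherin of hair cells) and Fam131c followed with changes of 1.52, 1.504 and 1.49. The groups did not overlap in these 5 genes, which were chosen by the size of that change. On this scale 94.0% of all tested intervals also lay above without overlap.

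On the share scale, where no gene was called, the 8 genes with the lowest p among those that were higher in both sets were Cbx2, Serpina12, Rcor2, Capn5, Flnc, Ranbp3l, Hs6st1 and Nos2. Cbx2, a Polycomb subunit that reads methylated histone H3, had shares of 304 and 268, then 392 and 397 (0.46 ± 0.09). Rcor2 had 275 and 276, then 392 and 357 (0.44 ± 0.08), and Ranbp3l 478 and 497, then 642 and 742 (0.50 ± 0.10). The others had log2 changes of 0.24 to 0.33. Among them, Flnc encodes an actin crosslinker, Capn5 a calcium-dependent protease, Hs6st1 a heparan sulfate sulfotransferase and Nos2 the inducible nitric oxide synthase.

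The 8 genes with the lowest p among those lower in both sets were Lama3, Fignl1, Antxr2, Ptprz1, Rwdd3, Cyp51, Ftx and Gad2. Lama3, a laminin chain of the epithelial basement membrane, had shares of 1395 and 1466, then 1185 and 1146 (-0.30 ± 0.05). Cyp51 had 301 and 368, then 245 and 233 (-0.48 ± 0.11). Ptprz1, a receptor phosphatase, had 510 and 485, then 398 and 370 (-0.37 ± 0.08). Ftx, a non-coding gene beside Xist on the X chromosome, had 541 and 540, then 419 and 466 (-0.29 ± 0.07). The groups did not overlap in these 16 genes, which their choice by low p favours, and the adjusted p was 0.69 in each (limma). Among all genes, 35.1% lay above and 21.1% below without overlap. On the deposited scale all 16 had positive changes, of 0.26 to 0.48 in the second group, beside a median of 0.79 over all genes.

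**Figure D5:**
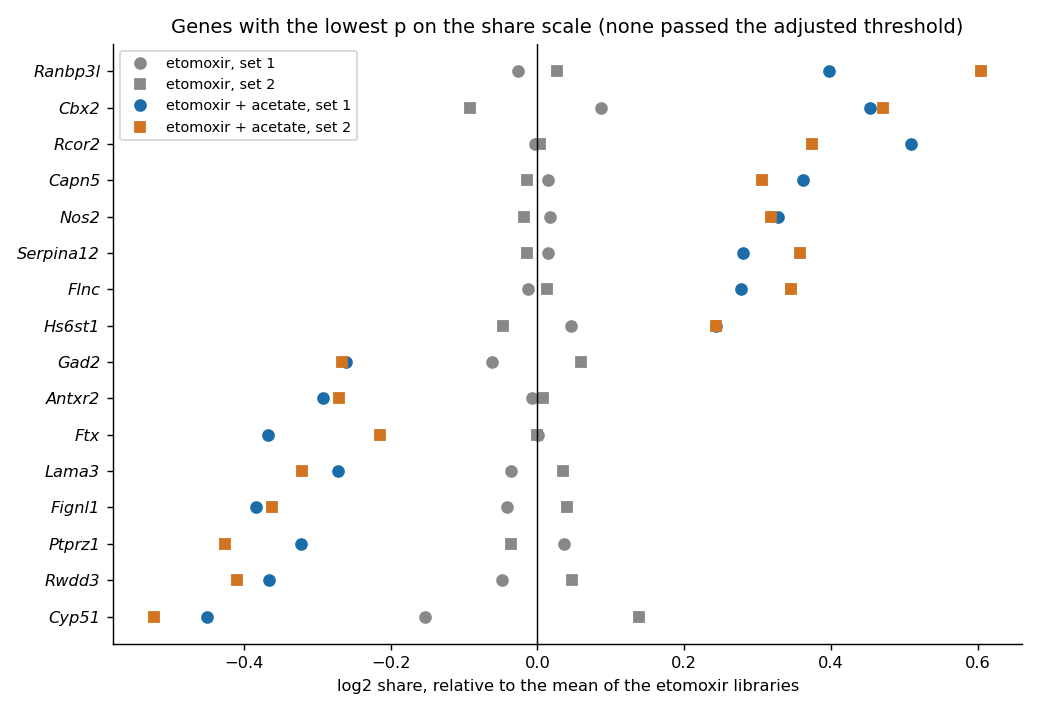
Share of each of the 16 genes in the 4 libraries, on a log2 scale relative to the mean of the etomoxir libraries, with etomoxir in grey and etomoxir + acetate in blue (set 1) and orange (set 2). In all 16 rows the coloured points lie on 1 side of both grey points, which the choice by low p favours. No gene passed the adjusted threshold.

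The same 16 genes were looked up in the acetate pairs that took no part in their choice, although the ranking by p used the spread of all 12 libraries. With acetate against vehicle, 8 of the 8 higher genes were higher in both sets, as were 35.1% of all genes with a mean of at least 50, and 8 of the 8 lower genes were lower in both sets, as were 30.2% of all. The log2 share changes there ran from 0.16 to 0.50 and from -0.27 to -0.12. With acetate added to etomoxir and SB204990, 8 of 8 and 8 of 8 again went the same way in both sets, beside 16.8% and 18.8% of all genes. Of the named intervals, 4 of 4 were higher and 4 of 4 lower in both sets with acetate against vehicle, as were 33.1% and 29.9% of all intervals with a mean of at least 50. The signs were the same with SB204990 (21.6% and 17.4% of all), although the Fignl1 interval had a change of -0.000096 there in set 2, which is no change. The intervals at Ranbp3l, Rcor2, Antxr2, Fignl1 and Cyp51 are part of genes counted above, so that their agreement is not separate from that of the genes. Libraries of 1 set share whatever the suffix stands for.

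Whether etomoxir altered the acetate change was tested as the difference of the 2 changes, (etomoxir + acetate minus etomoxir) minus (acetate minus vehicle). On the deposited scale, acetate against vehicle had 61 intervals and 0 genes called higher, compared with 36028 and 15211 in the presence of etomoxir. With the replicate block, an alternative added after the data were seen, acetate against vehicle had 2083 intervals and 3888 genes called. The difference itself was called at 0 of 63903 intervals and 0 of 19458 genes by limma, with 1137 intervals and 31 genes higher and 5 intervals and 0 genes lower before adjustment. With the block it was again called at 0 intervals and 0 genes, with 1883 and 240 higher and 8 and 0 lower before adjustment. With single libraries left out (fits added after the data were seen), genes called stayed at 0, and 1 interval, at the Gm42418 promoter, was called higher without the vehicle library of set 1 (limma, 1.54 ± 0.29, adjusted p = 0.0098). The counts higher before adjustment then ranged from 99 intervals and 3 genes without the vehicle library of set 2, and 310 and 2 without the etomoxir + acetate library of set 1, to 3401 and 575 without the vehicle library of set 1 and 4576 and 1127 without the etomoxir + SB204990 library of set 2. The difference's median over intervals was 0.19 and 0.49 without the vehicle library of set 2 and of set 1. The log2 ratio of the sums was larger with etomoxir in both sets (0.77 against 0.56 in set 1 and 0.72 against 0.38 in set 2). The difference's median over intervals was 0.33. On the share scale, 0 genes were called, and 57 were higher and 37 lower before adjustment. Single libraries moved these 2 counts and turned their balance. They were 227 and 98 without the vehicle library of set 1, 19 and 25 without the vehicle library of set 2, 34 and 28 or 170 and 48 with the acetate library of set 1 or of set 2 left out, 89 and 31 or 19 and 26 for the etomoxir libraries, 15 and 26 or 30 and 26 for those of etomoxir + acetate, and 234 and 133 for the etomoxir + SB204990 library of set 2. With median-of-ratios scaling they were 90 and 71, and by DESeq2 on the recovered reads 13 and 0, with 0 called in each of these fits. The unequal counts of calls are therefore not shown to be a difference in response. Rcor2 and Ranbp3l had share changes of 0.41 and 0.50 with acetate alone, and Cbx2 0.16.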

How the data were processed

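H3K27ac ChIP-seq was measured in 12 libraries of 4T1 cells, and the comparison used 4 of them, with the other 8 entering the estimate of the spread. Each sample had received human chromatin (7.5%) as a spike. According to the labels and the study's methods, the authors aligned paired-end reads to a merged GRCh38 and mm10 genome with nf-core/chipseq, counted reads over intervals, and multiplied each library by a factor taken from its human reads, scaled to the highest factor, so that the deposited values are a spike-in scaled signal. The deposited columns of the 2 libraries with factor 1 hold whole read counts. Whether intervals were called on pooled libraries, and the version of the aligner, are not given in the sources used here. No input was used. Each interval carries the symbol of the nearest start site, which need not be the gene it acts on. No other column of sample values was present (0).

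Values in each column were whole multiples of 1 step, taken as the factor, which gave whole reads at 100% of values (tolerance 0.01). Values were analysed as deposited and as shares (column sum set to 10 M). A gene's value was the sum over its intervals. limma 3.58.1 (R 4.3.3), with intensity trend, was fitted to log2(value + 1) with 6 group means over features with a mean of at least 10, and p-values were adjusted by Benjamini-Hochberg over all of them. Fold changes on this scale understate those of low features. edgeR 4.0.16 and DESeq2 1.42.0 on the recovered reads were alternatives, and the scripts were tested on simulated data. Each library held 7.18 to 16.7 M reads, and each group 2 libraries.

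The text names the 5 genes with the largest deposited change among those called, the 8 genes and 4 intervals per direction with the lowest p on the share scale, each with a mean of at least 50 and moving alike in both sets, a few genes fixed by name, and in each list the 3 with the highest level and the extremes of the share change. Predicted genes (Gm and a number, for example) were counted but not named. Some genes that meet the rule are not reported here. Names outside this rule were chosen with their values seen. The comparison, its members and the gene lists were chosen with earlier results of these data known.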

Additional observations from a re-analysis of the deposited data

Results flagged for a closer look

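Of 63903 intervals, 2 had a change that differed between acetate added to etomoxir and acetate added to etomoxir with SB204990 (limma, deposited scale, test of the difference), and on the share scale 0 had. Both carry predicted gene symbols and are named because they passed. At the Gm42418 promoter interval (chr17:39843038-39847203, mm10) the deposited values were 731 and 729 with etomoxir, 2324 and 1475 with etomoxir + acetate, 618 and 5093 with etomoxir + SB204990, and 1738 and 2150 with acetate added to that, a difference of 1.22 on the log2 scale (adjusted p = 0.0234). The value of 5093 comes from the library with the fewest reads, and its part in the difference was not tested.

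At an intergenic interval assigned to Gm28986 (chrY:29071024-29071283) the values were 11.4 and 10.3, then 31 and 24 without SB204990, and 5.97 and 31, then 0 and 0 with it. The fitted difference of 5.16 (limma, adjusted p = 8.75e-06) depends on the pseudocount, since 2 of these libraries are at 0. The interval spans 260 bp, and its mean over the 12 libraries was 13.5, near the filter of 10.

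A further 5 summaries had the opposite sign in both sets of another acetate pair, and these differences were not tested. Under median-of-ratios scaling, which moved the all-gene median by -0.10, the fitted list medians changed sign for 1 of the 4 lists, fatty acid oxidation and PPAR targets (0.079 to -0.022), and kept it for glycolysis (-0.068 to -0.169), constitutively expressed genes (-0.019 to -0.12) and other cell types (0.10 to 0.0015). Introns held 0.270 percentage points more of the reads (0.225 and 0.316 by set), compared with -0.0181 and -0.00863 for acetate against vehicle. Averaged over the medians of the 2 sets, the share change was -0.036 for constitutively expressed genes (-0.042 and -0.030, against 0.046 and 0.045 for acetate and vehicle) and 0.12 for markers of other cell types (0.11 and 0.12, against -0.14 and -0.036). Against acetate added to etomoxir with SB204990, the averages of the set medians were 0.051 for fatty acid oxidation and PPAR targets (0.026 and 0.075, against -0.0074 and -0.058) and -0.060 for glycolysis (-0.049 and -0.072, against 0.022 and 0.031).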

How the results depend on the processing

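Of 139 values recomputed for the main results, 116 kept their direction and size or side of the threshold. Without the spike-in factor the log2 change of the total was -0.033 in place of 0.74, and the median interval change 0.10. With the share multiplied by the factor, that median was 0.85 and 0 intervals and 0 genes were called on the deposited scale. Without the intensity trend 22940 intervals were called, and with no filter 29269 of 126464 were called higher and 2 lower. With a mean of at least 50 they were 22254 of only 24109 tested, and from promoter intervals alone 4136 of only 5241 genes, so that these 2 counts are lower because fewer features were tested. Leaving out 1 library moved the median interval change between 0.73 and 0.91, intervals called between 5144 (without the etomoxir + acetate library of set 1) and 49082 (without the etomoxir + SB204990 library of set 2), and genes called between 5603 and 17907 (the same 2 libraries). On the share scale, the fit of the 4 libraries alone called 2743 intervals and 1861 genes, and the other alternatives 0. The causes were not tested.

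Set numbers were not taken to pair the libraries throughout: over 15 pairs of groups the correlation of same-set deviations ran from -0.227 to 0.605, with 4 above 0.1 and 0.096 for etomoxir and etomoxir + acetate. It was 0.562 to 0.605 among vehicle, acetate and etomoxir + SB204990, whose libraries did deviate together by set. With the replicate block, 40676 intervals and 16174 genes were called on the deposited scale and 0 on the share scale. Leaving out 1 library, the difference between acetate with and without etomoxir was called at 0 to 1 intervals on the deposited scale (1 without the vehicle library of set 1). The block raised the calls of acetate against vehicle from 61 to 2083 intervals and from 0 to 3888 genes, and the difference between the 2 acetate changes was called at 0 intervals and 0 genes on the deposited scale and 0 genes on the share scale.

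Among genes, signs turned as follows. Under median-of-ratios scaling, share changes were -0.044 for Acly, -0.094 for Acss2, -0.016 for Crebbp and -0.090 for Postn. From promoter intervals alone they were -0.026 for Acly and 0.24 for Cpt1a. Leaving out 1 library gave Zeb1 -0.40 to 0.82 on the deposited scale, and on the share scale Zeb1 -1.05 to 0.079, Ppara -0.0017 to 0.77, Kat2b -0.034 to 0.38, Acss2 -0.050 to 0.062, Cpt1a -0.019 to 0.014 and Postn -0.022 to 0.045.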

Other observations

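Histone genes of the Hist clusters were looked at after their values had been seen, and no test of the group was made. On the deposited scale 6 of 24 were called higher (limma, 78.2% of all genes) with a median log2 change of 0.42, and on the share scale the median was -0.32 (-0.34 and -0.27 by set), with 14 of 24 lower without overlap (21.1% of all genes). Hist1h1d, a linker histone gene, had shares of 6302 and 6801 reads per 10 M with etomoxir and 4088 and 4831 with etomoxir + acetate. Hist1h2ab, a core histone gene, had 3031 and 3221, then 1932 and 2304. With acetate against vehicle the median share change of these genes was -0.12 and -0.043, and with acetate added to etomoxir and SB204990 it was -0.33 in set 1 and 0.29 in set 2. Single libraries differed between sets by as much as between treatments: Hist1h1d had shares of 6853 and 4018 with vehicle, 6296 and 3850 with acetate, 7031 and 3647 with etomoxir + SB204990, and 4596 and 5524 with acetate added to that. Many of them are near-identical copies, so that reads may have been split between them, and an interval in a cluster can cover several genes.

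Among chromosomes, tested intervals of the X chromosome had the lowest median share change, -0.029 and -0.039 (1043 intervals), and those of chromosome 11 had 0.108 and 0.190. Median GC content was 43.8% on X and 47.6% on chromosome 11, and its part in this order was not tested.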
